A study of Mus musculus with 10 samples.

Results

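Nrf2 (gene Nfe2l2), its repressors Keap1, Cul3 and Bach1, the related activators Nfe2l1 and Nfe2, and the small Maf partners Mafk, Mafg and Maff were followed in mouse spleen erythroblasts, the nucleated precursors of red blood cells. These 9 genes were taken by name from the 53465 genes of the deposited count table, with earlier results of these data known, and each of the 9 passed the filter on low counts that left 14110 genes. RNA was sequenced in 10 libraries, each from cells purified from spleen with Miltenyi beads 11 days after 5-FU, a drug that kills dividing blood precursors, so every group shared the drug and the C57BL/6 strain. The groups were double-null mice lacking Nrf2 and the miR-144/451 microRNA cluster (n = 3), miR-144/451-null mice (n = 2), Nrf2-null mice (n = 3) and wild type mice (n = 2). The labels give no age, no sex and no description of either deleted allele. They do not say whether libraries of a group came from separate mice. By the sex-linked genes given below, double-null replicate 3 came from another animal than replicates 1 and 2. No other libraries of a group can be separated in this way. The p-values therefore measure only the spread between these libraries.

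Nrf2 is a transcription factor of the cap'n'collar (CNC) family that switches on antioxidant and detoxifying genes. In unstressed cells Keap1 holds Nrf2 and hands it to the Cul3 ubiquitin ligase for destruction, and oxidants disable Keap1 so that Nrf2 builds up. CNC factors bind DNA only as dimers with a small Maf protein, at antioxidant response elements, and Bach1 competes for the same partners and sites as a repressor that heme releases. Nfe2 is the large subunit of NF-E2, a CNC factor known for its part in globin and platelet genes, and Nfe2l1 (Nrf1) is a CNC factor that sits in the endoplasmic reticulum and drives proteasome genes after it is cut free.

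The deleted cluster encodes the following mature microRNAs, shown because their seeds decide which members can be matched. They lie on the plus strand at chr11:78073047-78073066, chr11:78073010-78073032 and chr11:78073186-78073207 (RefSeq, GRCm38.p6), and capitals mark the seed, bases 2 to 8.
mmu-miR-144-3p: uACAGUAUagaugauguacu
mmu-miR-144-5p: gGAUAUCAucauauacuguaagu
mmu-miR-451a: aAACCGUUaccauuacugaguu
No seed was shared among them. The longest 3' UTR of each member in GENCODE M21 (GRCm38) was searched for the complement of each seed. Of the 9 members, 3 held the miR-144-3p site ATACTGT, at 4 positions in all, against 13.8% of the 11737 tested genes that had an annotated 3' UTR. The 4 sites are shown in capitals within 30 bases of the 3' UTR.
Nfe2l2, upstream site: acagaacttatttATACTGTtctcacttgt
Nfe2l2, downstream site: tatacttttttatATACTGTatgaacagga
Cul3: ccattgaatatcaATACTGTtgatatactt
Mafk: ctttcccagtttgATACTGTagatctttat
The windows are at chr2:75675688-75675717 and chr2:75675596-75675625 on the minus strand for Nfe2l2, chr1:80265706-80265735 on the minus strand for Cul3, and chr5:139801819-139801848 on the plus strand for Mafk. The downstream Nfe2l2 site and the Mafk site are followed by an A, the fullest kind of seed match, and the others match the 7 seed bases alone. The Nfe2l2 3' UTR is short, 448 bases, and 3.8% of genes with a 3' UTR of like length held any ATACTGT. The same share was 18.4% for the length of Cul3 and 17.3% for that of Mafk. Mafg held a single miR-144-5p site, TGATATC, found in 6.3% of genes and in 14.3% of those with a 3' UTR as long as that of Mafg, and no member held the miR-451a site AACGGTT, found in 2.2%. These are letter matches and were not measured as bound sites.

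Library totals ranged from 13087827 to 15131036 counts. Levels of single genes are given as normalised CPM (counts scaled to each library's total, after TMM scaling, with factors of 0.919 to 1.182). Sums over marker lists are CPM by library total alone, without TMM scaling, here and below. The Mir144 gene had 0 counts in each double-null and miR-144/451-null library, where Nrf2-null libraries had 9 to 16 and wild type libraries 12 and 17. Erythroid markers summed to 89778.5 to 126480.7 CPM over the 10 libraries, and no gene of the macrophage, B cell, T and NK cell, neutrophil or megakaryocyte marker lists was at 0 in every library. Between double-null and Nrf2-null libraries 3 of 8 erythroid markers fell. B cell markers summed to 93.5 to 174.7 CPM in double-null and 416.9 to 507.7 CPM in Nrf2-null libraries (8 of 8 genes fell), and to 238.3 to 592.8 CPM in miR-144/451-null and 695.1 to 942.1 CPM in wild type libraries (0 of 8 passed the threshold). Neutrophil markers summed to 1071.3 to 1167.9 CPM in double-null, 375.5 and 1120.0 CPM in miR-144/451-null, 159.5 to 1132.2 CPM in Nrf2-null and 438.4 and 476.9 CPM in wild type libraries, with 0 of 9 genes called in any comparison and a median log2 fold change of 1.48 in double-null against wild type. T and NK cell markers reached at most 68.2 CPM. Nrf2-null replicate 3 stood apart in its macrophage markers, at 969.2 CPM, where the other libraries had 78.3 to 405.5 CPM. Xist and Y-linked genes marked 3 libraries as female, double-null replicate 3 and the 2 of wild type, and the other 7 as male, so male and female cannot be told apart from genotype in either single null against wild type. The part of these differences in the results that follow was not tested, except where a value is given. Only the double-null group held both sexes. A term for sex, used below, therefore rests on double-null replicate 3 alone and cannot be told apart from other traits of that library.

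Loss of the cluster in mice without Nrf2 came with more of the repressor transcripts Cul3 and Bach1 and less Nfe2. In double-null against Nrf2-null libraries, 2 of the 9 members rose and 1 fell at a Benjamini-Hochberg adjusted p under 0.05 in edgeR's quasi-likelihood test, a share of 33.3%, where 27.3% of the 14110 tested genes passed (14.4% higher and 12.9% lower). The share among members was therefore near that among all genes. The median log2 fold change was -0.16 over the members and 0.02 over the tested genes. The values of 4 members did not overlap between these groups, and those of 45.2% of tested genes did not. In bulk cells, fewer cells of a type and less RNA per cell cannot be told apart.

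With Nrf2 present, loss of the cluster called none of the 9 members. Between miR-144/451-null and wild type libraries, 0 members passed in edgeR, where 4.63% of tested genes did (2.4% higher and 2.23% lower). At an unadjusted p under 0.05 there were 3 (Nfe2l2, Nfe2 and Cul3), and DESeq2 called 1, Nfe2. Nfe2l2, Nfe2 and Cul3 were also the 3 members whose values did not overlap, against 47.0% of tested genes. Loss of Nrf2 called 0 members with the cluster present (Nrf2-null against wild type, 0.191% of tested genes called, 0.128% higher and 0.0638% lower, none of the 9 at an unadjusted p under 0.05) and 0 with the cluster absent (double-null against miR-144/451-null, 0.0638% called, 0.0496% higher and 0.0142% lower, 1 member at an unadjusted p under 0.05). That 1 member was Nfe2l2, the gene deleted in 1 of the groups compared. DESeq2 called 0 members in both. The values of 2 members did not overlap in each of these comparisons, against 35.9% of tested genes for Nrf2-null and wild type and 24.5% for double-null and miR-144/451-null libraries. They were the deleted gene Nfe2l2 and Keap1 in the first, and Nfe2l2 and Mafg in the second. In double-null against wild type, Cul3 rose and Nfe2 fell, 2 of 9 members where 17.2% of tested genes passed (8.26% higher and 8.95% lower), and 5 members did not overlap, against 50.2% of tested genes. The interaction, which tests whether cluster loss acted differently with and without Nrf2, called 0 members and 0.0638% of tested genes (0.0283% higher and 0.0354% lower), with 0 members at an unadjusted p under 0.05 and 0 by DESeq2.

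**Figure D1:**
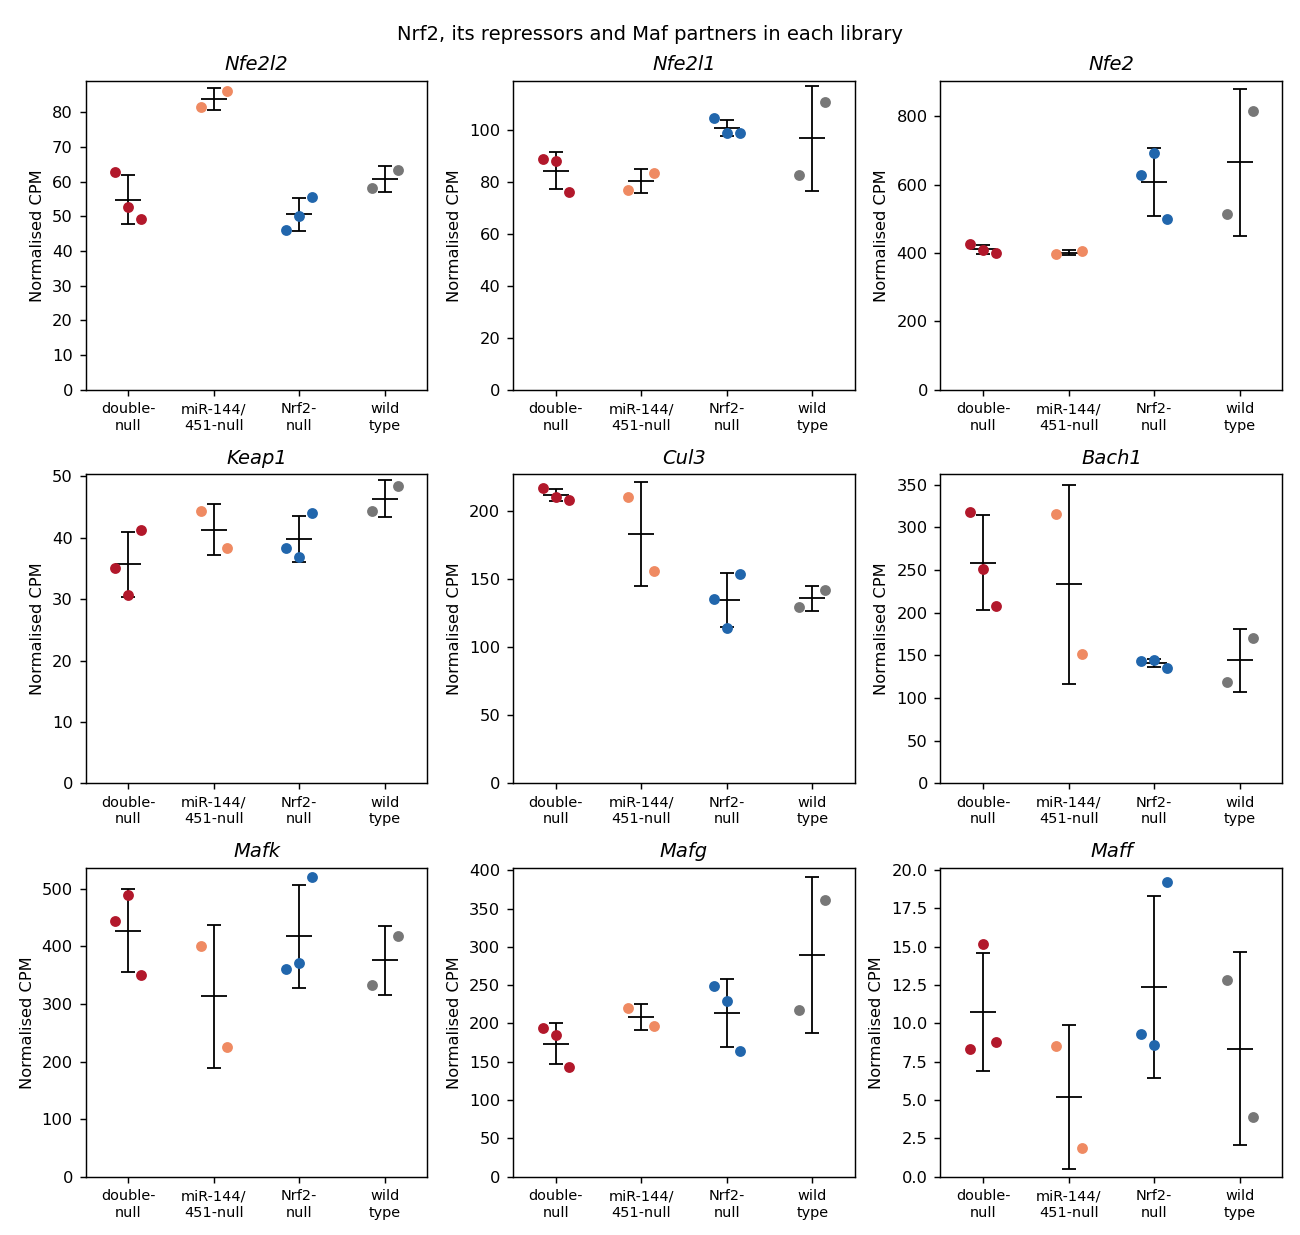
Normalised CPM of the 9 members in each library, with 1 panel per gene and 1 point per library; long bars are group means and whiskers the SD (n = 3, 2, 3 and 2 from left to right). Cul3 and Bach1 sat higher and Nfe2 lower in all 3 double-null libraries than in all 3 Nrf2-null libraries, and Nfe2l2 was highest in the 2 miR-144/451-null libraries.

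Among the activators, Nfe2l2 (chromosome 2, 668 to 1468 counts per library) had 62.7, 52.7 and 49.2 CPM in double-null, 81.7 and 86.1 CPM in miR-144/451-null, 46.1, 50.2 and 55.6 CPM in Nrf2-null and 58.2 and 63.5 CPM in wild type libraries. The 2 miR-144/451-null libraries were the highest of the 10, above each of the others. The log2 difference from wild type was 0.46 ± 0.16 (SE), 1.38-fold, with an adjusted p of 0.129 in edgeR, and none of 18 alternatives called it, with log2 values of 0.23 to 0.59. Double-null libraries were 1.53-fold lower than miR-144/451-null libraries (log2 -0.61 ± 0.14), with no overlap, an unadjusted p of 0.00109 and an adjusted p of 0.2. Against Nrf2-null libraries, double-null libraries differed by 0.12 ± 0.13 on the log2 scale and overlapped with them.

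Nfe2l2 reads were counted at 668 to 727 per library in Nrf2-null mice, against 958 and 780 in wild type mice. The log2 difference was -0.26 ± 0.14 (adjusted p = 0.47), although each Nrf2-null library was lower than both wild type libraries. The labels do not say which part of the gene was deleted, so a count over the whole gene does not check the genotype, and transcript from the disrupted allele would be counted too. The interaction of cluster and Nrf2 loss on Nfe2l2 was -0.35 ± 0.20 on the log2 scale (adjusted p = 0.999).

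Nfe2, which is abundant in erythroid cells and megakaryocytes, had 425.6, 408.0 and 398.9 CPM in double-null, 396.1 and 407.1 CPM in miR-144/451-null, 629.4, 694.2 and 501.0 CPM in Nrf2-null and 513.9 and 816.5 CPM in wild type libraries. The 5 libraries without the cluster lay within a narrow band, and each of the 5 libraries with it was above them. Nfe2 fell 1.48-fold in double-null against Nrf2-null libraries (log2 -0.57 ± 0.18, with an adjusted p of 0.037) and 1.62-fold in double-null against wild type libraries (log2 -0.70 ± 0.20, adjusted p = 0.0344). For miR-144/451-null relative to wild type the log2 difference was -0.73 ± 0.22 with an adjusted p of 0.0911.

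The calls for Nfe2 depended on single libraries. Against Nrf2-null the call was kept in 12 of 19 alternatives, and among the settings that lost it were a term for sex (adjusted p = 0.0991) and the fits without Nrf2-null replicate 1 (adjusted p = 0.0999) or 2 (0.12) or double-null replicate 1 (0.0728), 2 (0.079) or 3 (0.103), at log2 values of -0.69 to -0.46 over all 19. In male libraries alone it was -0.52 ± 0.15 (adjusted p = 0.045), and without Nrf2-null replicate 3 it was -0.69 ± 0.19 (adjusted p = 0.0264). Against wild type, the call was kept in 10 of 18 alternatives, and a term for sex gave a log2 value of -0.738 ± 0.291. The log2 difference was -0.32 (adjusted p = 0.345) without wild type replicate 3, and the adjusted p was 0.173 with the term for sex, 0.0542 without Nrf2-null replicate 1, and 0.0705, 0.0677 and 0.0927 without double-null replicate 1, 2 or 3. Megakaryocyte markers summed to 146.7 to 196.7 CPM in double-null and 70.3 to 109.1 CPM in Nrf2-null libraries, the opposite direction to Nfe2, with 1 of 8 tested markers higher and 1 lower at the threshold.

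Nfe2l1 (chromosome 11) was the steadiest member. It had 88.8, 88.4 and 76.2 CPM in double-null, 77.1 and 83.7 CPM in miR-144/451-null, 104.6, 98.9 and 99.2 CPM in Nrf2-null and 82.7 and 111.1 CPM in wild type libraries, a 1.46-fold range over the 10. Each double-null library was below each Nrf2-null library, but the log2 difference of -0.26 ± 0.13 had an adjusted p of 0.168. For miR-144/451-null relative to wild type it was -0.27 ± 0.16 (adjusted p = 0.43), and the groups overlapped.

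Of the repressors, Cul3 (chromosome 1), the scaffold of the ligase that Keap1 loads, had 216.5, 210.0 and 208.1 CPM in double-null and 135.4, 113.7 and 153.3 CPM in Nrf2-null libraries. It had 209.9 and 155.6 CPM in miR-144/451-null and 129.1 and 142.0 CPM in wild type libraries. In both pairs every library without the cluster was above every library with it. Cul3 rose 1.58-fold in double-null relative to Nrf2-null libraries (log2 0.66 ± 0.15, adjusted p = 0.00749), and the call was kept in all 19 alternatives at log2 0.55 to 0.76, the male libraries alone (0.69 ± 0.18, adjusted p = 0.0363) and the fit without Nrf2-null replicate 3 (0.76 ± 0.16, adjusted p = 0.00824) included.

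Cul3 rose 1.56-fold in double-null against wild type (log2 0.64 ± 0.17, adjusted p = 0.0237), with a log2 value of 0.619 ± 0.225 under a term for sex. That call was kept in 14 of 18 alternatives and lost with a term for sex (adjusted p = 0.146) and without wild type replicate 1 (adjusted p = 0.177), wild type replicate 3 (0.0927) or double-null replicate 1 (0.0573). With Nrf2 present, miR-144/451-null libraries differed from wild type by 0.43 ± 0.18 on the log2 scale (adjusted p = 0.224), and the interaction was 0.23 ± 0.23 (adjusted p = 0.999).

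Bach1 (chromosome 16), the heme-sensing repressor, had 318.0, 250.8 and 207.6 CPM in double-null and 143.4, 144.8 and 135.5 CPM in Nrf2-null libraries. It had 315.9 and 151.1 CPM in miR-144/451-null and 118.4 and 170.4 CPM in wild type libraries. The 3 Nrf2-null libraries lay close together below all 3 double-null libraries, while miR-144/451-null replicate 1 was far above replicate 3, which fell between the wild type libraries. Bach1 rose 1.83-fold in double-null relative to Nrf2-null libraries (log2 0.87 ± 0.26, adjusted p = 0.0319).

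That Bach1 call was kept in 14 of 19 alternatives, with log2 values of 0.70 to 1.03 over all 19, and in male libraries alone it was 1.03 ± 0.27 (adjusted p = 0.0374). It was lost without Nrf2-null replicate 1 (adjusted p = 0.0812), 2 (0.0722) or 3 (0.0842) and without double-null replicate 1 (0.102) or 2 (0.0545). With Nrf2 present, Bach1 in miR-144/451-null libraries differed from wild type by 0.69 ± 0.32 on the log2 scale (adjusted p = 0.282). It was 1.16 without miR-144/451-null replicate 3 (adjusted p = 0.0443) and 0.07 at the lowest over 18 alternatives. In double-null against wild type it was 0.84 ± 0.30 (adjusted p = 0.0785).

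Keap1 (chromosome 9), the adaptor that senses oxidants, had the lowest FPKM of the repressors. In CPM, it had 35.1, 30.7 and 41.2 CPM in double-null, 44.3 and 38.4 CPM in miR-144/451-null, 38.4, 36.9 and 44.0 CPM in Nrf2-null and 44.3 and 48.5 CPM in wild type libraries. No comparison called Keap1. The log2 difference was -0.16 ± 0.14 (adjusted p = 0.44) for double-null relative to Nrf2-null, -0.17 ± 0.17 (adjusted p = 0.69) for miR-144/451-null relative to wild type, and -0.38 ± 0.16 (adjusted p = 0.122) in double-null against wild type. Keap1 shares 10.9% of its exon bases with Gm16754 on the opposite strand, which had 3 to 20 counts per library. The strand setting of the counting is not given, so reads of the pair cannot be told apart.

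Of the small Mafs, Mafk (chromosome 5) had 444.0, 489.5 and 349.7 CPM in double-null, 401.6 and 225.8 CPM in miR-144/451-null, 361.1, 371.3 and 519.9 CPM in Nrf2-null and 333.7 and 418.1 CPM in wild type libraries. Double-null overlapped with Nrf2-null and miR-144/451-null with wild type, and no comparison called it. Between double-null and Nrf2-null the log2 difference was 0.04 ± 0.23, and it changed sign when single libraries were left out. For miR-144/451-null relative to wild type it was -0.26 ± 0.28, and 0.12 without miR-144/451-null replicate 3. Mafk shares 4.3% of its exon bases with Tmem184a on the opposite strand, which had 7 to 43 counts per library.

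Mafg (chromosome 11) had 193.7, 184.4 and 143.4 CPM in double-null, 220.6 and 196.7 CPM in miR-144/451-null, 248.8, 229.1 and 164.1 CPM in Nrf2-null and 217.6 and 360.9 CPM in wild type libraries. Wild type replicate 3 was the highest of the 10, and double-null replicate 3 the lowest. Relative to wild type, double-null libraries differed by a log2 value of -0.73 ± 0.23 (adjusted p = 0.054) with no overlap. It passed the threshold in 5 of 18 alternatives, with adjusted p values of 0.00116 to 0.467 over the 18. Among these, it passed without wild type replicate 1 (log2 -1.03, adjusted p = 0.0343) and without Nrf2-null replicate 3 (adjusted p = 0.0358), and was -0.32 without wild type replicate 3. Between double-null and Nrf2-null it was -0.30 ± 0.21 (adjusted p = 0.32). Mafg shares 2.2% of its exon bases with Sirt7 on the same strand, which had 829 to 1374 counts per library. No strand setting would separate reads of the shared bases.

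Maff (chromosome 15), an immediate-response small Maf, had the fewest reads of the 9, with 32 to 251 counts per library. It had 8.3, 15.2 and 8.8 CPM in double-null, 8.5 and 1.9 CPM in miR-144/451-null, 9.3, 8.6 and 19.2 CPM in Nrf2-null and 12.8 and 3.9 CPM in wild type libraries. Its 10.11-fold range over the libraries was the widest of the 9, and it ran between replicates of a group as much as between groups. The SE of each log2 difference was correspondingly large, 0.59 in double-null against Nrf2-null (-0.20) and 0.75 for miR-144/451-null relative to wild type (-0.72), and no call was made in any comparison.

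**Figure D2:**
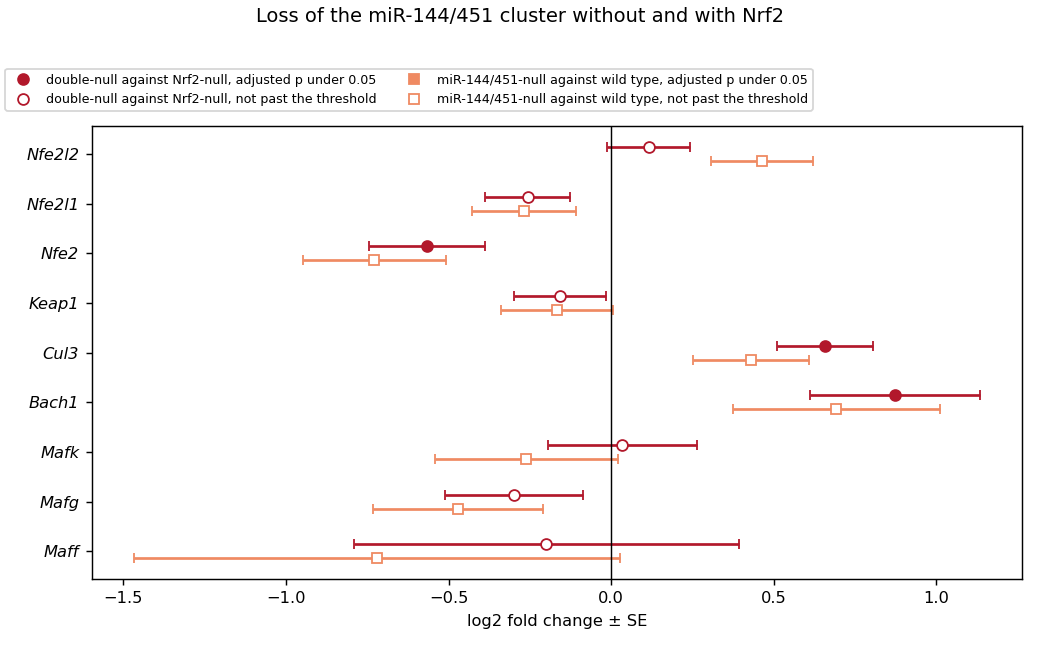
Log2 fold change with its SE for loss of the miR-144/451 cluster, in double-null against Nrf2-null (circles) and in miR-144/451-null against wild type (squares); filled marks have an adjusted p under 0.05. Cul3, Bach1 and Nfe2 are filled for double-null against Nrf2-null and open for miR-144/451-null against wild type, with the same direction in both.

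Compared per length of gene, as deposited FPKM (counts scaled to gene length and library total), Nfe2 and Mafk led in the 4 genotypes and Keap1 and Maff came last. Over the 10 libraries Nfe2 averaged 172.7 FPKM and was above Mafk, at 99.1 FPKM, in 10 of 10 libraries. Mafg (38.4 FPKM), Cul3 (34.3 FPKM) and Bach1 (31.5 FPKM) overlapped as neighbours. Nfe2l1 (16.7 FPKM) and Nfe2l2 (16.2 FPKM) also overlapped, Nfe2l1 being higher in 6 of 10 libraries. Keap1 averaged 8.59 FPKM, below Nfe2l2 in 10 of 10 libraries, and Maff 4.49 FPKM. Nfe2 was above 98.5% of the tested genes in level, Mafk above 97.1%, Nfe2l2 above 81.5% and Keap1 above 69.8%.

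The order changed in the middle with genotype. Cul3 (41.7 ± 0.97 FPKM) and Bach1 (40.0 ± 6.97) stood above Mafg (29.6 ± 3.499) in all 3 double-null libraries (SD, n = 3). In wild type libraries Mafg (51.7 ± 12.0) stood above Cul3 (28.4 ± 1.58) and Bach1 (23.6 ± 3.14) in both (SD, n = 2). Nfe2l2 stood above Nfe2l1 in both miR-144/451-null libraries (24.7 ± 3.02 against 16.5 ± 2.35 FPKM, SD, n = 2) and below it in all 3 Nrf2-null libraries (12.7 ± 0.76 against 17.7 ± 1.09 FPKM, SD, n = 3). These orders are descriptions and were not tested.

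**Figure D3:**
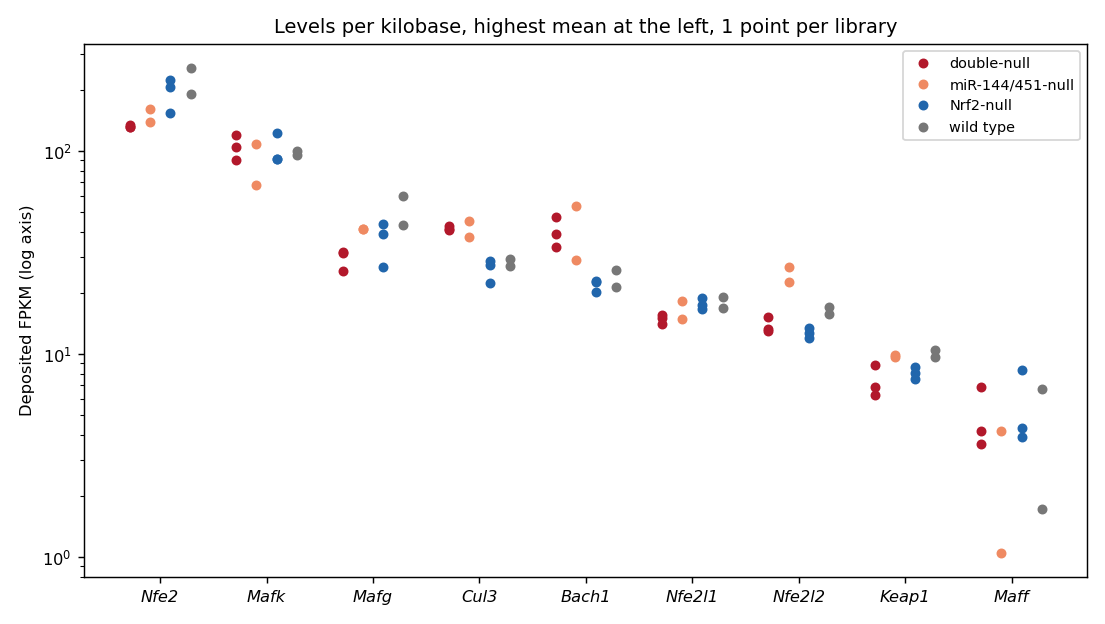
Deposited FPKM of each member on a log axis, 1 point per library, with the genotypes side by side from double-null at the left to wild type at the right and members ordered by their mean over the 10 libraries. Nfe2 and Mafk lie apart at the top and Keap1 and Maff at the bottom, while Mafg, Cul3 and Bach1 overlap.

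Ratios within a library do not depend on scaling between libraries, so 4 ratios of FPKM were compared. In double-null and Nrf2-null libraries Nfe2l2 is the deleted gene, so ratios to it are ratios of reads and not of repressor to working activator. Bach1 to Nfe2l2 was 3.12, 2.93 and 2.59 in double-null, 2.38 and 1.08 in miR-144/451-null, 1.911, 1.771 and 1.497 in Nrf2-null and 1.251 and 1.648 in wild type libraries. The 3 double-null libraries had the highest values of the 10. Averaged within Nrf2 status, loss of the cluster came with a log2 difference of 0.45 (two-sided exact permutation p = 0.167, adjusted over 8 tests 0.267). Averaged within cluster status, loss of Nrf2 came with a difference of 0.55 (two-sided exact permutation p = 0.03, adjusted 0.12, smallest possible p 0.02). There the deleted gene is the denominator. With Nrf2 loss, Bach1 itself differed by a log2 value of -0.03 ± 0.29 with the cluster present and 0.15 ± 0.29 with it absent.

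Keap1 to Nfe2l2 was 0.453, 0.472 and 0.677 in double-null, 0.439 and 0.360 in miR-144/451-null, 0.674, 0.595 and 0.640 in Nrf2-null and 0.616 and 0.617 in wild type libraries. Of the 5 libraries without the cluster 4 were lower than the 5 with it, and double-null replicate 3, the female library of its group, was the highest of all. Loss of the cluster came with a log2 difference of -0.45 (two-sided exact permutation p = 0.0667, adjusted 0.178, smallest possible p 0.0167).

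Mafg to Mafk was 0.303, 0.262 and 0.285 in double-null, 0.382 and 0.605 in miR-144/451-null, 0.479, 0.429 and 0.219 in Nrf2-null and 0.453 and 0.600 in wild type libraries. Each double-null library was below each miR-144/451-null library, and Nrf2-null replicate 3 was the lowest of the 10. Loss of Nrf2 came with a log2 difference of -0.66 (two-sided exact permutation p = 0.03, adjusted 0.12). The summed small Mafs to the summed CNC factors and Bach1 ranged from 0.615 to 0.799 in double-null, 0.472 to 0.667 in miR-144/451-null, 0.488 to 0.771 in Nrf2-null and 0.513 to 0.588 in wild type libraries, so the groups overlapped. None of the 8 ratio tests passed after adjustment.

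**Figure D4:**
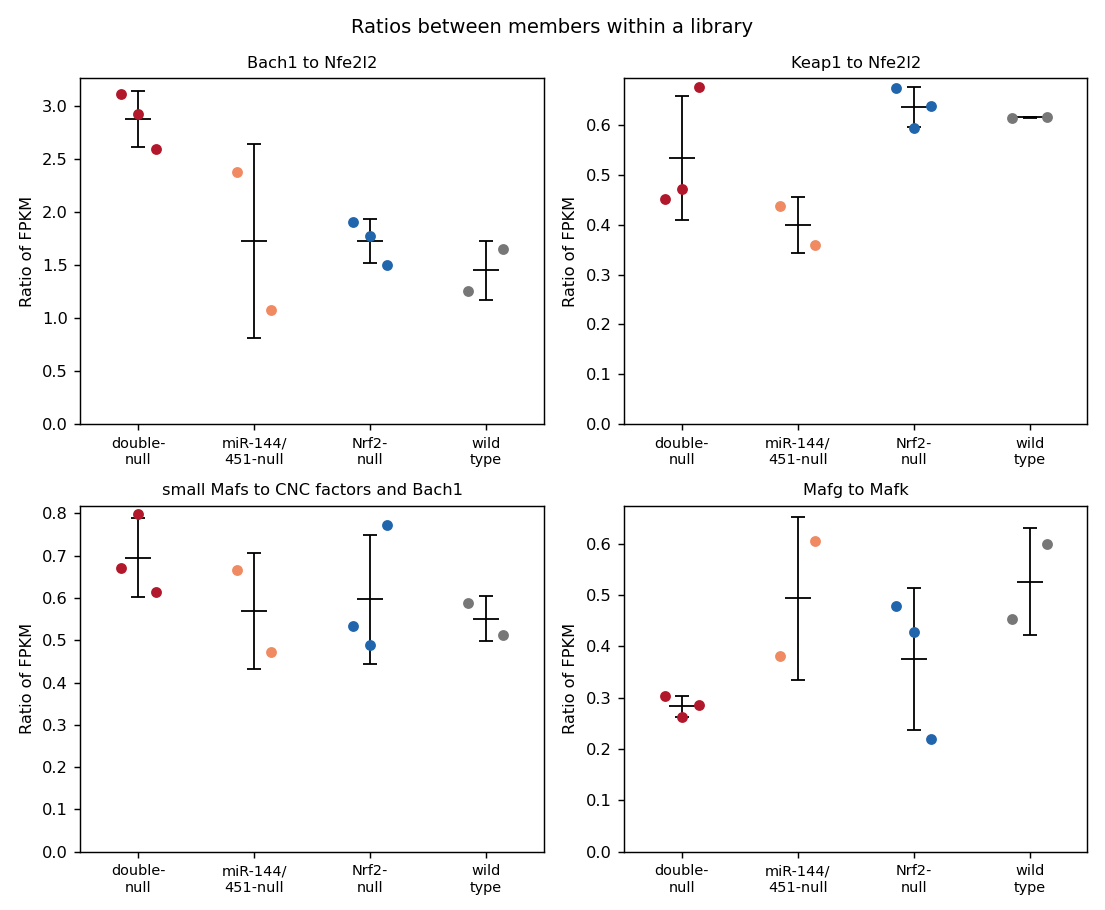
Ratios of deposited FPKM between members in each library, with group means and SD (n = 3, 2, 3 and 2 from left to right). The Bach1 to Nfe2l2 ratio is highest in the 3 double-null libraries, from 2.59 to 3.12.

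Genes that act on the members were then counted in double-null against Nrf2-null, where 27.3% of tested genes passed. Of 20 cofactors of the Keap1-Cul3 and related Nrf2 ligases, 9 rose and 3 fell, with a median log2 fold change of 0.30 against 0.02 over all tested genes. Fbxw11, a beta-TrCP protein that recognises Nrf2 phosphorylated by GSK3, had 71 to 83 CPM in double-null and 39.6 to 42.5 CPM in Nrf2-null libraries and rose by 0.90 ± 0.11 on the log2 scale (adjusted p = 0.000337). Its paralog Btrc went the other way, 115 to 179 CPM in double-null and 277 to 312 CPM in Nrf2-null libraries (log2 -1.04 ± 0.17, adjusted p = 0.0014). Dpp3, which binds Keap1 in competition with Nrf2, rose (log2 0.86 ± 0.14), and Trim21, a ubiquitin ligase that modifies p62, fell (log2 -1.61 ± 0.28). The beta-TrCP paralogs thus differed in direction, and the calls of these 4 genes were kept in 19 of 19 alternatives.

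Of the list of Nfe2l1 processing factors, 6 of 7 genes were matched by symbol, and of these 4 rose and 0 fell, with a median of 0.52. They were Vcp, the ATPase that extracts Nfe2l1 from the membrane (log2 0.81 ± 0.13, 392 to 416 CPM in double-null and 228 to 237 CPM in Nrf2-null libraries), Derl1 (0.52 ± 0.13), Fbxw7 (0.80 ± 0.20) and Ogt (0.52 ± 0.17). Of 7 genes of Bach1 turnover and export, 2 rose and 2 fell, with a median of -0.22. Fbxo22, an F-box protein that targets Bach1, rose (log2 0.97 ± 0.19) and so did Rbck1 (HOIL-1), a ligase for heme-bound proteins (0.54 ± 0.12). The nuclear exporter Xpo1 fell (-0.56 ± 0.12), as did Usp7 (-0.49 ± 0.15). Ogt lost its call without Nrf2-null replicate 1 (adjusted p = 0.128), 2 (0.072) or 3 (0.105), double-null replicate 1 (0.114) or 2 (0.105) and miR-144/451-null replicate 1 (0.0504), and with RLE factors (0.0562). Fbxw7 had an adjusted p of 0.0504 in male libraries alone. Usp7 lost its call without Nrf2-null replicate 1 (0.0907) or 3 (0.0995) and double-null replicate 2 (0.0901) or 3 (0.112), with a term for sex (0.0962) and in male libraries alone (0.106).

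Of 8 coactivators of CNC-Maf dimers, 2 rose and 0 fell, with a median of 0.27. Smarca4, the BRG1 remodelling ATPase (0.74 ± 0.13), and the Mediator subunit Med16 (0.66 ± 0.12) passed, while the acetyltransferases Crebbp (0.35 ± 0.18, adjusted p = 0.169) and Ep300 (0.29 ± 0.15, adjusted p = 0.172) did not. Leaving out Nrf2-null replicate 3 gave 8 higher and 3 lower ligase cofactors, 3 and 0 Nfe2l1 processing genes, 2 and 1 Bach1 turnover genes and 2 and 0 coactivators. Male libraries alone gave 9 and 2, 3 and 0, 2 and 1, and 2 and 0 for these lists in the same order.

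**Figure D5:**
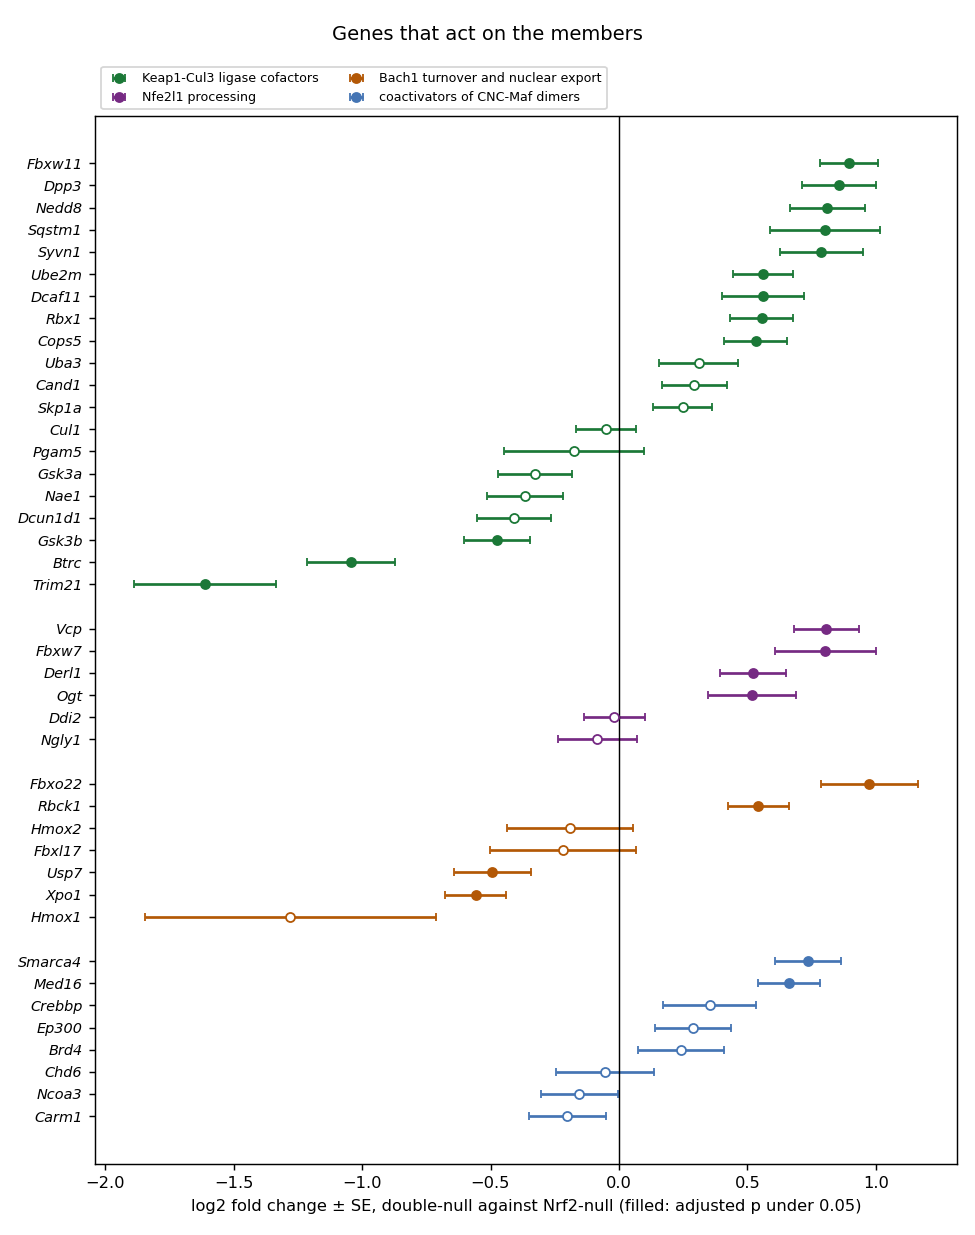
Log2 fold change ± SE in double-null against Nrf2-null for genes that act on Nrf2, Nfe2l1, Bach1 and their dimers, grouped by list and sorted within it; filled points have an adjusted p under 0.05. Fbxw11 lies at 0.90 and its paralog Btrc at -1.04 among the ligase cofactors.

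The other CNC, Bach and large Maf genes were lower in abundance. Of 6 listed, 5 were tested, with 1 higher and 2 lower and a median of -1.29. Bach2, a repressor known from B cells, had 4.03 to 9.57 CPM in double-null and 10.3 to 32.4 CPM in Nrf2-null libraries (log2 -1.61 ± 0.47, adjusted p = 0.0312). Maf (-1.29 ± 0.42, adjusted p = 0.0432), known from macrophages, was highest in Nrf2-null replicate 3. Nrl rose (log2 1.21 ± 0.32) at a level below 4 CPM in every library. Without Nrf2-null replicate 3 none of the 5 passed (adjusted p = 0.0888 for Bach2, 0.208 for Maf and 0.0579 for Nrl), and the log2 difference was smaller, at -0.94 for Bach2 and -0.66 for Maf. A term for sex (0.0975 for Bach2 and 0.0675 for Maf), male libraries alone (0.144 and 0.112) and a fit of only these groups (0.0538 and 0.0615) lost both calls. Bach2 was also lost without wild type replicate 3 (0.0501) and when double-null replicate 1 (0.0997) or 3 (0.109) was left out, Maf without double-null replicate 1, 2 or 3 (0.129, 0.069 and 0.0793) or wild type replicate 1 or 3 (0.0559 and 0.064), also with library totals only (0.0568), and Nrl without Nrf2-null replicate 2 (0.0561). B cell markers were lower too, at 93.5 to 174.7 CPM in double-null and 416.9 to 507.7 CPM in Nrf2-null libraries. Among Nrf2-null libraries their sum varied far less than Bach2 did. Macrophage markers summed to 78.3 to 359.5 CPM in double-null and 313.6 to 969.2 CPM in Nrf2-null libraries, beside Maf (0 of 10 passed, median log2 fold change -1.46), and the part of either cell type was not tested.

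Core target genes of Nrf2 and Bach1 gave values for the output of the network. Pir (pirin), named after its values were seen, was lower without Nrf2 in both backgrounds. It had 6.63 to 7.58 CPM in double-null, 24.2 and 33.6 CPM in miR-144/451-null, 10.2 to 11.7 CPM in Nrf2-null and 27.7 and 48.8 CPM in wild type libraries. It fell in double-null against miR-144/451-null (log2 -2.02 ± 0.24, adjusted p = 0.0101) and in Nrf2-null against wild type (-1.77 ± 0.24, adjusted p = 0.00914), the single core target called in each. The call was kept in 13 of 19 and 13 of 18 alternatives, and log2 values stayed between -2.26 and -1.77 and between -2.10 and -1.31. A term for sex gave adjusted p values of 0.0639 and 0.484, as double-null against miR-144/451-null and as Nrf2-null against wild type. The first call was also lost without double-null replicate 1 (adjusted p = 0.051) or 3 (0.0657), and the second without wild type replicate 3 (0.162) or Nrf2-null replicate 1 (0.057) or 2 (0.0646). Male libraries alone (0.0765) and a fit of only these groups (0.051) also lost the first. In double-null against wild type 1 core target rose, Prdx1 (log2 0.66 ± 0.18, adjusted p = 0.0293), and 3 fell. These were Pir (-2.42 ± 0.24, adjusted p = 0.000503), Nqo1 (-0.99 ± 0.18, adjusted p = 0.00544) and Gsr (-0.66 ± 0.20, adjusted p = 0.0406), with 17.2% of tested genes called. Alternatives are not given for Prdx1, Nqo1 and Gsr in this comparison. Over all genes its calls went from 2428 to 560 with a term for sex. The 2 wild type libraries lay apart, at 43.4 and 70.2 CPM for Nqo1 and 59.9 and 96.8 CPM for Gsr.

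Of the 18 core targets, 4 rose and 0 fell in double-null against Nrf2-null, where 14.4% of tested genes were called higher and 12.9% lower, with a median of 0.13. Both groups lack Nrf2. The 4 that rose were the peroxidase Prdx1 (log2 1.12 ± 0.16), the exporter Abcc4 (0.83 ± 0.12), the sulfiredoxin Srxn1 (1.99 ± 0.44) and G6pdx (0.74 ± 0.21), which feeds NADPH to the antioxidant enzymes. G6pdx lost its call without Nrf2-null replicate 1 (adjusted p = 0.0633) or 3 (0.0575) or double-null replicate 1 (0.0591) or 3 (0.0521), with a term for sex (0.0718) and in male libraries alone (0.0554), and the others kept theirs in 19 of 19 alternatives. Srxn1 had 52.3 to 87.1 CPM in double-null, 102 and 161 CPM in miR-144/451-null, 8.88 to 22.8 CPM in Nrf2-null and 42.1 and 111 CPM in wild type libraries. Between miR-144/451-null and wild type libraries none of the 18 passed in edgeR. Hmox1, the heme oxygenase that Bach1 represses and also named after its values were seen, had 20.4 to 74.6 CPM in double-null and 68.6 to 242 CPM in Nrf2-null libraries (log2 -1.28 ± 0.57, not past the threshold), and the highest value was again Nrf2-null replicate 3.

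Promoters were searched because CNC-Maf dimers bind at antioxidant response elements. In the 300 bases from 250 before to 50 after a RefSeq start (GRCm38.p6), the antioxidant response element core TGACNNNGC on either strand was found in 12.39% of 32851 promoters. It was found once each for Nfe2l2, Mafk, Mafg and Maff, shown in capitals on the strand of the gene with 10 bases on either side.
Nfe2l2, position -240 from the start: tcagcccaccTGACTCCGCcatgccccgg
Mafk, position -13 from the start, opposite strand: gatcccggaaGCGGTGTCAgtactgggga
Mafg, position -222 from the start, opposite strand: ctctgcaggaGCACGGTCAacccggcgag
Maff, position -112 from the start: gggcgtctcaTGACTCTGCcactggaaag
These windows are at chr2:75704885-75704913, chr5:139791513-139791541, chr11:120633751-120633779 and chr15:79346499-79346527. No promoter of Nfe2 was searched. The windows searched for Keap1, Cul3, Bach1 and Nfe2l1 did not hold these letters. In Nrf2-null against wild type, none of the 4 genes with the core passed the threshold. Their CPM values are those given above, with Nfe2l2 lower in each Nrf2-null library and Mafk, Mafg and Maff overlapping between those groups. Nfe2l2 is itself the deleted gene there, so its lower reads cannot be read as a response through its promoter.

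The genes whose log2 CPM followed each member most closely over the 10 libraries were listed as a description, among 8377 genes with a mean of at least 5 CPM. Nfe2l2 was followed by Ptrh2 (Pearson r = 0.92), Ttf1 and Snrnp200, and Nfe2l1 by Gucd1 (0.953) and Rab5b. Nfe2 was followed by Pheta2 (0.962), Ankrd9 and Hdac6. For Keap1 these included Wdr47 (0.908) and Smarcc1, for Cul3 Ppp2ca (0.974), Rexo1 and Ythdf1, and for Bach1 Zwint (0.972), Atp6v1e1 and Mysm1. Mafk was closest to Cln8 (0.935), Fbxo30 and Dnajb6, Mafg to Unkl (0.977), Bora and Tnfrsf21, and Maff to Ifrd1 (0.976), Dusp10 and Ier5. These points share the same 10 libraries and 4 genotypes, and no other member was among the 3 closest genes of any member.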

How the data were processed

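The authors deposited raw counts per Ensembl gene and, per library, FPKM. All 196970 FPKM values compared equalled the deposited count divided by 1 length per gene and the library total, within 0.1%. The submitters' processing notes list TopHat2, HISAT2 2.1.0, Bowtie2 2.2.3 and CASAVA with build mm9 but no roles. No source used here gives the counter, its annotation or its strand setting. Symbols came from the annotation by Ensembl identifier (99.6% matched). All 10 libraries (13087827 to 15131036 counts) entered a single edgeR 4.0.16 fit in R 4.3.3 (TMM, filterByExpr, robust quasi-likelihood, 6 residual degrees of freedom, Benjamini-Hochberg over 14110 genes). The fit was tested on simulated data. Ratios used exact permutation within the other genotype. DESeq2 1.42.0 and 18 further alternatives were run. Libraries of a group differed by more than sampling noise (chi-square per degree of freedom 17.3 to 30.4).

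The members and gene lists were chosen with earlier results of these data known. Named were the 9 members, the 3 genes most like each, up to 4 genes per pathway list with the smallest p in double-null against Nrf2-null, and Mir144. Pir, Hmox1, Nqo1 and Gsr were added after their values were seen. A few genes within this rule are left out here. No protein sequences were used here. The depth of a library limits the scarcest genes most.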

Additional observations from a re-analysis of the deposited data

How the results depend on the processing

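Members called numbered 3 between double-null and Nrf2-null libraries, and 1 to 3 when 1 library was left out. Between miR-144/451-null and wild type libraries they numbered 0, 1 with DESeq2, 2 with every gene that had at least 1 count, and 0 to 1 with 1 library left out. Between double-null and miR-144/451-null libraries they numbered 0, 2 with every gene that had at least 1 count, and 0 to 0 with 1 library left out. Between double-null and wild type libraries they numbered 2, 4 with DESeq2, 4 with library totals only, 4 with every gene that had at least 1 count, 0 with a term for sex, and 0 to 3 with 1 library left out. For Nrf2-null against wild type and for the interaction they stayed 0 to 0. With the replicate number as a block, 1 member was called between double-null and wild type libraries and Nfe2 lost its call in both comparisons that named it. Among the genes named from the lists it also ended the calls of Bach2 (adjusted p = 0.0584), Ogt (0.0691) and Usp7 (0.0541) against Nrf2-null and those of Pir (0.0617 and 0.0951). Deviations of same-numbered libraries of different groups had r of -0.111 to 0.287 (13 pairs, 1 over 0.1). Libraries with unlike numbers had r of -0.287 to 0.286 (24 pairs, 3 over 0.1). Deviations were taken from group means, so replicates in a group of 2 mirror each other. These values therefore cannot decide whether the number marks a pairing, and the main fit did not use it. Ratio tests with the replicate block gave exact p of 0.125 to 0.438.

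Sign changes touched uncalled values. The small Maf ratio for cluster loss was -0.019 as CPM without length. With a term for sex, Keap1 was 0.16 for miR-144/451-null and 0.105 for Nrf2-null, each relative to wild type. With 1 library left out, values for miR-144/451-null relative to wild type ran from -2.156 to 0.414 for Maff (0.414 without wild type replicate 1 and 0.019 without miR-144/451-null replicate 3) and from -0.731 to 0.122 for Mafk. Those for double-null relative to Nrf2-null ran from -0.53 to 0.263 for Maff and from -0.072 to 0.223 for Mafk. The interaction ran from -0.212 to 0.45 for Nfe2, from -0.286 to 0.809 for Bach1 and from -0.003 to 0.459 for Cul3. Ratio differences were 0.265 to 0.836 for Nrf2 loss and 0.164 to 0.734 for cluster loss (Bach1 to Nfe2l2), 0.13 to 0.293 and -0.546 to -0.383 (Keap1 to Nfe2l2), -0.825 to -0.484 and -0.399 to -0.058 (Mafg to Mafk), and 0.072 to 0.321 and 0.011 to 0.26 (small Mafs).

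Over all genes, 653 were called between miR-144/451-null and wild type libraries, against 1 with a term for sex, 152 with only these groups fitted, 429 with the block, 998 with DESeq2 and 1254 with every gene that had at least 1 count. Leaving out a library gave 40 to 691, with 40 and 200 without wild type replicate 3 or 1, 81 and 331 without miR-144/451-null replicate 1 or 3, and 390 without Nrf2-null replicate 1. Nrf2-null against wild type had 27, against 12 (sex), 45 (only these groups), 135 (DESeq2), 716 (every gene) and 11 to 32 with 1 library left out. Double-null against miR-144/451-null had 9, against 2 (only these groups), 3 (male), 4 (block), 183 (DESeq2), 743 (every gene) and 4 to 78 with 1 library left out. Double-null against wild type had 2428, against 560 (sex) and 775 to 2648 with 1 library left out, and the interaction 9, against 2 (sex), 5 (block), 24 (DESeq2), 232 (every gene) and 3 to 12. The 3850 of double-null against Nrf2-null ran from 2595 to 4346. The cause was not tested. Library totals alone moved the median of all genes to 0.147 for miR-144/451-null and -0.123 for Nrf2-null (both relative to wild type), -0.238 for double-null relative to miR-144/451-null, -0.112 for double-null relative to wild type and -0.105 for the interaction. The counts over pathway lists and their genes under these settings were added after seeing the data. Depth limits Maff most, at 32 to 251 counts.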
